A study of Stylophora pistillata with 24 samples.

Results

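Juveniles of the stony coral Stylophora pistillata moved from the shallow reef to mesophotic depth were compared at 8 days of age with juveniles that stayed shallow. The comparison takes in all genes of 6 of the 24 RNA-seq libraries, 3 from translocated and 3 from control juveniles. Both groups began as planulae, the swimming larvae, taken from the reef at 5 m near Eilat, and both were raised on the reef in plastic settlement chambers until day 8. Controls were raised at 5 m and translocated juveniles at 45 m. The groups thus share origin, age and type of chamber and differ in the depth of rearing. Anything else that differed between the chambers at 5 m and at 45 m cannot be told apart from depth. The other 18 libraries are adults and planulae from both depths and 60-day juveniles raised the same way at 5 m or 45 m. They enter the statistical fit, and the 60-day juveniles are set beside the 8-day ones at the end. Messenger RNA came from the whole organism, so fewer cells of a type and less RNA per cell cannot be told apart. The labels do not say if replicates came from separate parents, broods or chambers, and the p-values rest on a spread that may be partly technical.

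A reef coral houses photosynthetic algae, and light falls and shifts towards blue with depth. Corals read light with cryptochromes, opsins and a circadian clock, in which light-responsive transcription factors feed back on clock genes. They also make green fluorescent protein (GFP)-like pigments, whose levels are known to follow light. In the first days after settlement the polyp metamorphoses and begins to lay down a skeleton through a secreted organic matrix.

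The 6 libraries held 20197181 to 35778913 counts, and 27643 to 28097 genes had at least 1 count. Levels are given in CPM, a gene's count relative to the scaled total of its library, with no correction for gene length. On the first principal component of the 6 libraries (42.9% of variance) control replicates 1, 2 and 3 lay at -49.2, -1.04 and -82.7, and translocated replicates 1, 2 and 3 at 3.47, 38.0 and 91.4. The groups did not overlap on this axis, but control 2 and translocated 1 sat side by side. Spearman correlations between libraries of different groups ran from 0.939 to 0.979, against 0.967 to 0.979 among controls and 0.963 to 0.978 among translocated juveniles, so libraries of different groups could be as alike as those of 1 group. Summed levels of marker lists overlapped between the groups for skeleton-forming cells (86 genes tested), gland cells (78), neurons (74), ciliated larval epithelium (50), symbiont-bearing gastrodermis (7) and germ line (18). The cnidocyte list held 1 gene, at 0.325 to 1.17 CPM in controls and 1.7 to 2.6 CPM in translocated juveniles. The ciliated epithelium sum, 1650 to 1800 CPM in all 6 libraries, was far under the 8730 to 12200 CPM of shallow planulae.

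After 8 days at 45 m 1 gene passed the threshold. Of 25735 genes tested, class E basic helix-loop-helix protein 40-like (gene8345), a transcriptional repressor tied to the circadian clock in vertebrates, was the only call at an adjusted p under 0.05 (0.00389% of genes; edgeR quasi-likelihood test, Benjamini-Hochberg over all genes). Its level was 11.4, 14.01 and 12.6 CPM in controls 1, 2 and 3, and 31.2, 28.4 and 36.4 CPM in translocated juveniles. Every translocated library was above every control, and the spread within each group was small beside the gap. The log2 fold change was 1.33 (SE 0.17, adjusted p = 0.00345). The call did not hold with only the 6 libraries fitted (adjusted p = 0.078), with the 12 juvenile libraries (0.0969), without control 1 (0.0845) or without control 3 (0.0598), although the fold change stayed between 1.23 and 1.41.

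Over all genes tested, 12127 fold changes were above 0 and 13557 below. Among genes with a small unadjusted p, more were higher than lower in translocated juveniles. At an unadjusted p under 0.05 there were 925 higher (3.59%) and 472 lower (1.83%) genes, 1397 in all, against 1287 expected by the threshold alone. Single libraries moved these counts. Higher and lower genes numbered 554 and 280 without control 1, 1005 and 705 without control 2, and 545 and 202 without control 3. They numbered 1076 and 950 without translocated 1, 761 and 261 without translocated 2, and 407 and 158 without translocated 3. The split depended on scaling, with 1071 higher and 278 lower genes under DESeq2 size factors. In 2416 genes (9.39%) every translocated library lay above every control, and in 2160 (8.39%) below. Because the number of calls is small, the genes and groups that follow are given as levels and counts, and only gene8345 is a called change at 8 days. Of the genes named by rule, 12 higher and 12 lower ones were picked for groups that do not overlap. Their separation is therefore no added support. The gene lists were chosen with earlier results of these data known, and some list patterns were corrected after values had been seen. The shares and medians of all lists therefore describe their members and are no independent support.

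Among 14 clock and light-responsive regulators, gene8345 was the 1 called, and 5 (35.7%, against 9.39% of all genes) lay higher in translocated juveniles without overlap. Thyrotroph embryonic factor-like (gene10071), a PAR bZIP transcription factor under clock control in vertebrates, was at 32.7, 38.1 and 32.8 CPM in controls and at 66.0, 79.9 and 83.1 CPM in translocated juveniles (log2 fold change 1.15, SE 0.27, adjusted p = 0.315). A second copy (gene1874) was at 2.76, 3.32 and 2.23 CPM against 6.39, 11.0 and 11.7 CPM (1.81, SE 0.42). Both copies were separated between the groups, and in both translocated 1 was the lowest of its group.

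Cryptochrome-1-like (gene17590), of the blue-light receptor family, was at 132, 172 and 98.0 CPM in controls against 247, 229.6 and 228 CPM (0.81, SE 0.18, adjusted p = 0.284). The translocated libraries were close together and the controls spread. The second bHLH protein 40 gene (gene25223) was at 22.9, 32.4 and 24.3 CPM against 35.9, 36.6 and 40.9 CPM (0.51, SE 0.20, adjusted p = 0.811). Some other clock-linked genes did not share this pattern. A Clock-like gene (gene786), the activating partner in the loop, was at 49.1 to 55.1 CPM in controls and 55.0 to 57.9 CPM in translocated juveniles. Another cryptochrome-1-like gene (gene25041) was at 37.7 to 51.96 CPM against 27.5 to 44.7 CPM, and timeless (gene9837) had a log2 fold change of -0.12 (SE 0.39). The list median was -0.07, beside -0.03 over all genes, with 6 members above 0 and 8 below. The higher members were thus a subset of the list, and 1 member (7.14%, against 8.39% of all genes) lay lower without overlap. The library medians of the list were -0.01, 0.0012 and -0.05 in controls against 0.15, 0.07 and 0.0093 in translocated juveniles. The direction of the list thus depended on the measure.

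**Figure D1:**
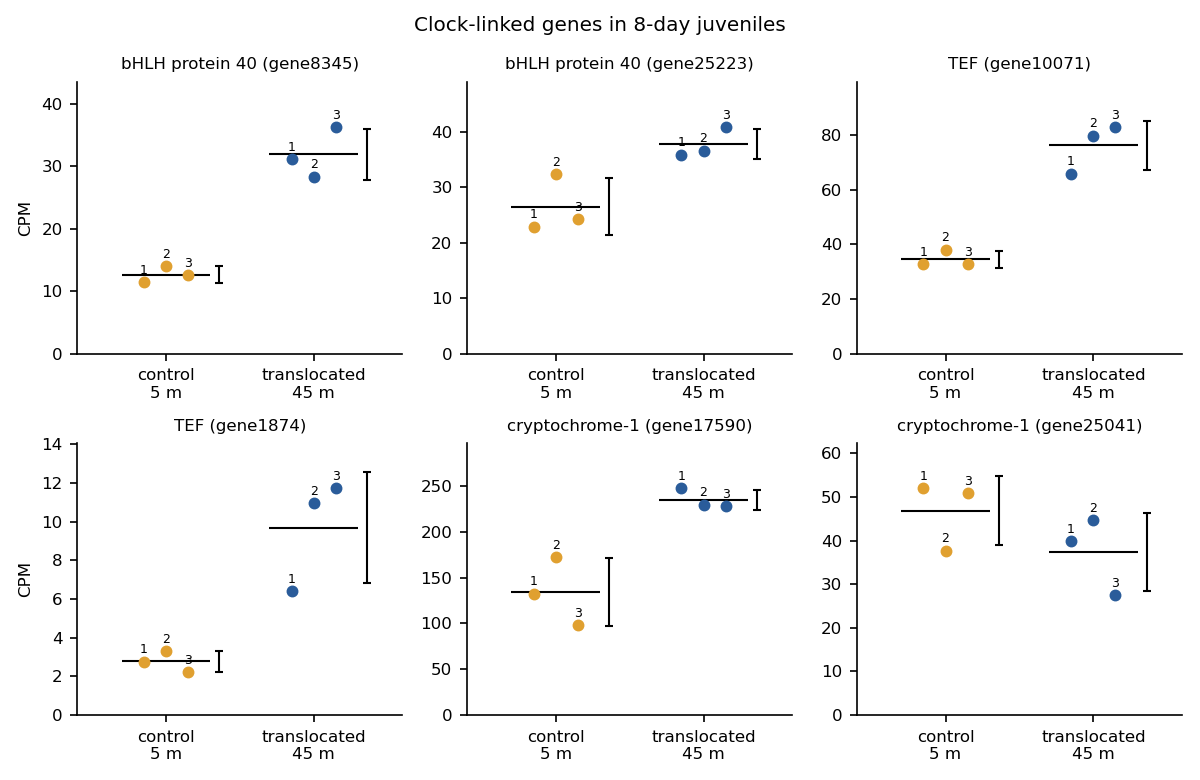
Levels in CPM (linear axis from 0) of 6 clock-linked genes in 3 control (5 m) and 3 translocated (45 m) libraries of 8-day juveniles. Points are libraries with their replicate number, horizontal lines are means and bars are 1 SD. The groups do not overlap in the first 5 panels, and only gene8345 (11.4 to 14.01 against 28.4 to 36.4 CPM) passed the adjusted threshold, while gene25041 overlaps.

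GFP-like pigments lay lower at depth in all 6 genes of the list, 4 of them without overlap (66.7%, against 8.39% of all genes), and none passed the adjusted threshold. The most abundant, gene28123, was at 463, 255 and 368 CPM in controls and at 42.4, 25.1 and 13.8 CPM in translocated juveniles. The gap was many times the level of the translocated group (log2 fold change -3.74, SE 1.33, adjusted p = 0.771). Its standard error was among the largest of the named genes. Gene24394 was at 125, 71.8 and 181 CPM against 28.03, 38.7 and 28.9 CPM (-1.98, SE 0.78), and gene24392 at 30.1, 13.2 and 40.9 CPM against 6.55, 9.33 and 6.78 CPM (-1.89, SE 0.75). In gene28123, gene24394 and gene24392 control 2 was the lowest control. Gene26459 overlapped, at 13.3, 8.71 and 21.3 CPM against 8.17, 9.59 and 8.84 CPM. Gene26795 was at 6.20, 6.4 and 4.96 CPM against 3.57, 2.22 and 4.13 CPM, and gene22464 stayed under 0.26 CPM in every library. The list median was -1.81. All 6 carry the same product name, so reads of near-identical copies may be shared and the split between them is uncertain.

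Other light-linked lists showed less. Of 47 opsin and phototransduction genes, which turn light into a signal, none was called (median 0.25). Without overlap 8 (17%, against 9.39% of all genes) lay higher and 1 (2.13%, against 8.39%) lower. Of 8 photolyase and excision repair genes, which mend ultraviolet damage, none was separated in either direction (median -0.09, with a sign that changed under some settings). The photolyase gene15271, which uses light to repair DNA, was at 49.5, 44.7 and 46.2 CPM in controls against 45.1, 40.5 and 36.8 CPM.

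Genes of mitochondrial energy metabolism had mostly negative fold changes, and none was called. Of 46 fatty acid oxidation genes 16 (34.8%, against 8.39% of all genes) lay lower without overlap and none higher (median -0.37). Of 52 oxidative phosphorylation genes, which build the respiratory chain, 10 (19.2%) lay lower and 1 higher (median -0.35). Of 19 citrate cycle genes 2 (10.5%) lay lower, a share near that of all genes, and none higher (median -0.34). Of 321 genes named as mitochondrial proteins 90 (28%) lay lower and 7 (2.18%) higher (median -0.31), a list added after its members' values had been seen, so that its counts describe them and support nothing.

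Medium-chain acyl-CoA dehydrogenase (gene19811), which opens the oxidation of medium-length fatty acids, was at 1336, 865 and 1547 CPM in controls and 582, 607 and 451 CPM in translocated juveniles (-1.19, SE 0.24, adjusted p = 0.277). Control 2 was the lowest control here, and this recurred through the mitochondrial genes. The 49 kDa subunit of complex I (gene13246) was at 379, 224 and 394 CPM against 185, 179 and 144 CPM (-0.97, SE 0.20). The succinate dehydrogenase flavoprotein (gene22267), shared by the citrate cycle and the respiratory chain, was at 751, 596 and 903 CPM against 455, 518 and 402 CPM (-0.71, SE 0.19). COX15 (gene22919), needed to make the heme of cytochrome oxidase, was at 124, 94.2 and 145 CPM against 58.7, 64.9 and 55.5 CPM (-1.02, SE 0.22). Ferrochelatase (gene6489), the enzyme that inserts iron into heme, was at 192, 166 and 235 CPM against 109, 99.0 and 76.3 CPM (-1.06, SE 0.26). In each of these 5 genes the groups did not overlap, which the rule for the 12 lower genes required of its members. The same held for acyl-CoA dehydrogenase family member 9 (gene6826), needed to assemble complex I in mammals, at 158, 116 and 197 CPM against 84.2, 98.4 and 70.8 CPM (-0.89, SE 0.24). It also held for AFG3-like protein 2 (gene9260), a protease of the mitochondrial inner membrane, at 337, 277 and 397 CPM against 215, 215 and 183 CPM (-0.72, SE 0.19).

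Medians of whole lists overlapped between the groups for some lists. Whole lists were not picked for separation, as the 12 lower genes named by rule were, so they are not ranked against these genes. Within each library, the median deviation from the 6-library mean over the oxidative phosphorylation list was 0.37, -0.22 and 0.39 (log2) in controls 1, 2 and 3, and -0.06, -0.15 and -0.35 in translocated juveniles. Control 2 thus lay among the translocated libraries for this list. For fatty acid oxidation the values were 0.29, -0.06 and 0.34 against -0.07, -0.14 and -0.34, with control 2 just above translocated 1. The citrate cycle list (control 2 at -0.15, translocated 1 and 2 at -0.08 and -0.05) and the genes named as mitochondrial (control 2 at -0.08, translocated 1 at -0.04) overlapped as oxidative phosphorylation did. Over all genes the medians stayed between -0.01 and 0.05.

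**Figure D2:**
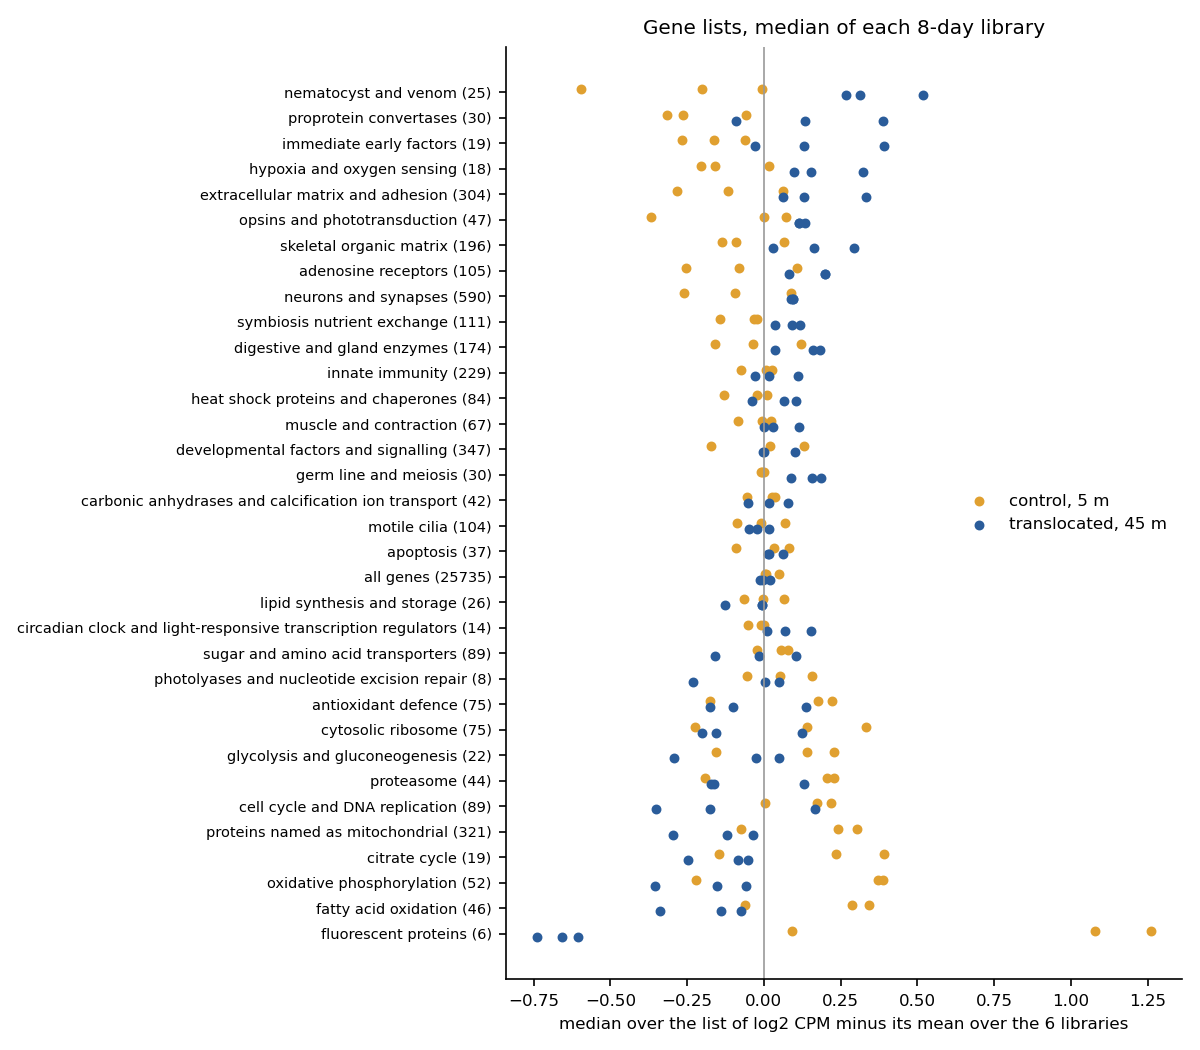
For each gene list (number of genes tested in parentheses) and over all genes, the median over members of log2 CPM minus the gene's mean over the 6 libraries, 1 point per library (control, 5 m, or translocated, 45 m). Lists are ordered by their median fold change, from nematocyst and venom genes to fluorescent proteins, whose groups do not overlap, and control 2 falls among the translocated libraries for oxidative phosphorylation.

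Among other lower genes, apolipoprotein D-like (gene8824), a lipid carrier of the lipocalin family, was at 145, 101 and 104 CPM in controls and 38.3, 38.6 and 27.4 CPM in translocated juveniles. It had the largest fold change of the 12 lower genes named by rule (-1.75, SE 0.34, adjusted p = 0.277). Methionine synthase (gene5219), which regenerates methionine from homocysteine, was at 103, 103 and 121 CPM against 66.6, 68.5 and 60.3 CPM (-0.74, SE 0.15). Dishevelled (gene13497), a relay of Wnt signalling, was at 142, 135 and 143 CPM against 100.1, 86.7 and 67.5 CPM (-0.72, SE 0.18). All 3 were separated between the groups, a trait that the rule for the 12 lower genes required. Of 26 lipid synthesis and storage genes, gene8824 among them, 2 (7.69%, against 8.39% of all genes) lay lower and 1 (3.85%, against 9.39%) higher without overlap (median -0.07).

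Lists for growth had negative medians, but their libraries overlapped. All 75 cytosolic ribosomal protein genes had a fold change below 0 (median -0.16), but none was separated between the groups, since control 2 was as low as the translocated libraries. The library medians were 0.33, -0.23 and 0.14 in controls against 0.12, -0.16 and -0.20. Of 44 proteasome genes 2 (4.55%, against 8.39% of all genes) lay lower without overlap and none higher (median -0.18). Of 89 cell cycle and DNA replication genes 9 (10.1%), a share near that of all genes, lay lower and none higher (median -0.23). The library medians of the cell cycle list were 0.17, 0.0033 and 0.22 in controls against 0.17, -0.18 and -0.35. Origin recognition complex subunit 3 (gene10148), which marks where DNA replication starts, had the smallest p of that list, with a fold change of -0.53 (SE 0.23).

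Oxygen-sensing genes were among the higher ones. The list of 18 had a median of 0.28, and 4 (22.2%, against 9.39% of all genes) lay higher without overlap. Gene25565, a homolog of the EGLN family of prolyl hydroxylases that use oxygen to mark hypoxia-inducible factors for destruction, was at 24.4, 32.6 and 22.1 CPM in controls and 53.7, 139 and 136 CPM in translocated juveniles (2.05, SE 0.43, adjusted p = 0.277). Translocated 1 stood nearer the controls than the other 2 did. Endothelial PAS domain protein 1-like (gene5319), a relative of those factors put on the list after its values had been seen, was at 79.6, 146 and 90.5 CPM against 124, 294 and 422 CPM (1.41, SE 0.32, adjusted p = 0.308), and overlapped through translocated 1. Without that library its adjusted p was 0.0165. Hypoxia-inducible factor 1-alpha-like (gene16548) was at 494, 612 and 715 CPM against 731, 1151 and 1262 CPM (0.79, SE 0.37, adjusted p = 0.918).

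Immediate early factors, transcription factors that are switched on within minutes of a stimulus in animals, included abundant genes with differences of several fold and a wide spread. Early growth response protein 1-like (gene4767) was at 188, 388 and 251 CPM in controls and 870.1, 1614 and 1767 CPM in translocated juveniles (2.36, SE 0.81, adjusted p = 0.736). c-Fos-like gene20908 was at 364, 593 and 526 CPM against 1147, 2627 and 3078 CPM (2.21, SE 0.88), and its partner AP-1-like gene5923 at 148, 187 and 199 CPM against 407, 742 and 909.9 CPM (1.94, SE 0.85). Each was separated, with translocated 1 lowest in its group. Of the 19 genes of the list 5 (26.3%, against 9.39% of all genes) lay higher without overlap and 1 (5.26%, against 8.39%) lower (median 0.30). The labels give neither the hour of collection nor the delay to fixation, and the part of either in the levels of these and the clock-linked genes was not tested.

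**Figure D3:**
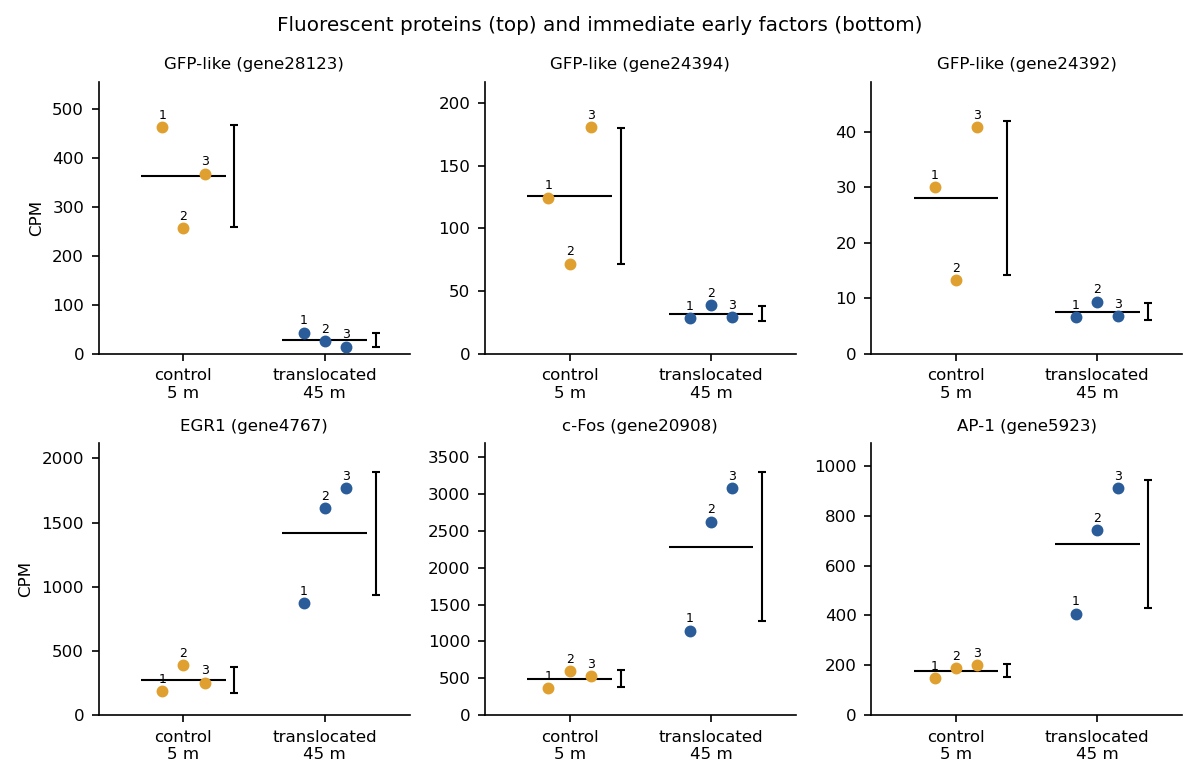
Levels in CPM (linear axis from 0) of 3 GFP-like pigment genes (top) and 3 immediate early transcription factors (bottom) in control (5 m) and translocated (45 m) libraries of 8-day juveniles. Points are libraries with their replicate number, lines are means and bars are 1 SD. No panel has overlapping groups, pigments are lower and early factors higher at 45 m, and none of the 6 genes passed the adjusted threshold.

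Of 84 heat shock and chaperone genes 21 (25%, against 9.39% of all genes) lay higher without overlap and 7 (8.33%, against 8.39%) lower, with a median of 0.08. The co-chaperones dnaJ homolog B4 (gene22156) and B5 (gene22162) accounted for the smallest p-values. Gene22156 was at 31.1, 61.0 and 33.2 CPM in controls against 115, 132 and 164 CPM (1.72, SE 0.40, adjusted p = 0.315), and gene22162 at 213, 249 and 216 CPM against 418, 568 and 619 CPM (1.24, SE 0.30). Heat shock factor 1-like (gene1), the transcription factor that drives heat shock genes, was at 659, 1359 and 968 CPM against 1809, 2957 and 4314 CPM (1.60, SE 0.48, adjusted p = 0.572). All 3 genes were separated between the groups. Of 75 antioxidant genes 9 (12%) lay higher and 8 (10.7%) lower, near the background, and peroxiredoxin-6-like (gene14847), a peroxide-reducing enzyme, was at 113, 112 and 70.5 CPM against 221, 191 and 209 CPM.

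Secreted and surface proteins lay higher more often than lower. There were 196 skeletal organic matrix genes, whose products are found in or named for the coral skeleton. Of these 26 (13.3%, against 9.39% of all genes) lay higher without overlap and 9 (4.59%, against 8.39%) lower, with a median of 0.25. A galaxin-like gene (gene12581), named for a protein first found in coral skeleton, was at 10.8, 17.3 and 6.01 CPM in controls and 37.2, 266 and 347 CPM in translocated juveniles (4.25, SE 1.13, adjusted p = 0.472). Translocated 1 was far under the other 2. A second galaxin-like gene (gene5548) was at 1.39, 1.41 and 1.93 CPM against 3.38, 5.70 and 37.8 CPM, where translocated 3 carried most of the difference, and its fold change of 3.30 became 1.52 without that library. Of 42 carbonic anhydrase and calcification transport genes 5 (11.9%) lay higher and 2 (4.76%) lower, with a median of 0.01 whose sign depended on the setting.

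Of 304 extracellular matrix and adhesion genes 57 (18.8%, against 9.39% of all genes) lay higher without overlap and 11 (3.62%, against 8.39%) lower (median 0.27). Matrix metalloproteinase-25-like (gene6767), of a family of matrix-cutting enzymes, was at 44.0, 62.8 and 61.6 CPM against 124, 179 and 267 CPM (1.76, SE 0.64). Of 30 proprotein convertase genes, which cut precursors of hormones and secreted proteins, 12 (40%) lay higher without overlap and none lower (median 0.35). This list was added after its members' values had been seen, so the count describes them and supports nothing. Furin-1-like (gene8227) was at 15.2, 25.4 and 18.6 CPM against 32.7, 51.97 and 101 CPM (1.65, SE 0.35, adjusted p = 0.277). A subtilisin/kexin type 6-like gene (gene26620) was at 19.8, 38.9 and 21.2 CPM against 42.2, 88.7 and 149.8 CPM (1.81, SE 0.42). In both genes the groups did not overlap, as the rule for the 12 higher genes required, and translocated 1 was the lowest of its group. A type 4-like gene (gene8226) rested on 1 library, at 1.19, 1.63 and 93.9 CPM in translocated juveniles, and its fold change of 5.63 became 1.11 without it.

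Nematocyst and venom genes, the stinging equipment of cnidarians, had the highest median of all lists, 0.62 over 25 genes. Of these 5 (20%, against 9.39% of all genes) lay higher without overlap, none lower (against 8.39%), and none was called. The library medians were -0.20, -0.01 and -0.60 in controls and 0.31, 0.27 and 0.52 in translocated juveniles, so the groups were separated. The single cnidocyte marker gene was also higher in translocated juveniles, by the levels given above, and its part in this result was not tested. Toxin-named genes were among the members, such as the astacin-like protease toxin gene8177 at 13.4, 15.3 and 10.4 CPM against 16.2, 19.4 and 22.6 CPM. Of 174 digestive and gland enzymes 26 (14.9%) lay higher and 7 (4.02%) lower (median 0.19).

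Neural and signalling lists leaned the same way. Of 590 neuron and synapse genes 92 (15.6%, against 9.39% of all genes) lay higher without overlap and 25 (4.24%, against 8.39%) lower (median 0.20). The summed neuron markers overlapped. A gene named for LWamide neuropeptides (gene717), which trigger metamorphosis of cnidarian larvae, was at 18.6, 17.9 and 7.28 CPM against 42.6, 25.2 and 28.6 CPM (1.14, SE 0.35, adjusted p = 0.61). A serotonin receptor 1-like gene (gene13039) was at 39.99, 79.9 and 50.5 CPM against 93.9, 173 and 265 CPM (1.64, SE 0.47). Both were separated. Of 105 adenosine receptor-named genes, a list also added after values were seen, 19 (18.1%) lay higher and 1 lower (median 0.20). Adenosine receptor A1-like (gene21498) was at 5.61, 6.67 and 5.18 CPM against 11.0, 20.03 and 16.03 CPM (1.43, SE 0.32, adjusted p = 0.284).

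The remaining lists held no called gene. Of 229 innate immunity genes 33 (14.4%, against 9.39% of all genes) lay higher and 18 (7.86%, against 8.39%) lower (median 0.08), led by toll-like receptor 6 (gene2724), a microbe sensor, at 14.9, 20.3 and 13.99 CPM against 32.8, 56.6 and 71.4 CPM. Of 111 genes of symbiosis nutrient exchange 17 (15.3%) lay higher and 11 (9.91%) lower (median 0.20). Of 22 glycolysis and gluconeogenesis genes 2 (9.09%) lay higher and 1 (4.55%) lower (median -0.18). Of 89 sugar and amino acid transporters 9 (10.1%) lay each way (median -0.08). Hexokinase-1-like (gene3152), the entry step of glycolysis, was at 60.5, 63.9 and 77.96 CPM against 91.8, 139 and 162 CPM (0.95, SE 0.27). Of 104 motile cilia genes 7 (6.73%) lay higher and 6 (5.77%) lower, and of 67 muscle genes 8 (11.9%) and 3 (4.48%). Of 347 developmental genes 34 (9.8%) lay higher and 30 (8.65%) lower, shares near those of all genes. For 37 apoptosis genes the counts were 5 (13.5%) and 2 (5.41%), and for 30 germ line genes 6 (20%) and 0. The medians of these 5 lists were between -0.03 and 0.04, and that of all but the muscle list changed sign under some settings. The summed germ line markers ran from 2200 to 4700 CPM in controls and from 3960 to 6220 CPM in translocated juveniles.

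The 24 genes with the smallest p among named, non-overlapping genes of at least 10 CPM show how the libraries lay within the groups. Translocated 1 was the library nearest the controls in 10 of the 12 higher but only 4 of the 12 lower genes, where translocated 2 was nearest in the other 8. Control 2 was the one nearest the translocated group in 10 of the 12 higher and 11 of the 12 lower genes. Over all 2416 higher genes without overlap, translocated 1 was nearest in 1187 (49.1%) and control 2 in 1273 (52.7%). Over the 2160 lower genes these were 1130 (52.3%) and 1058 (49%). Among the 24 genes were SID1 transmembrane family member 2 (gene3039), of a family that carries double-stranded RNA in the nematode Caenorhabditis elegans, at 1.20, 3.38 and 1.15 CPM against 8.90, 11.1 and 20.8 CPM (2.83, SE 0.61). A BDNF/NT-3 growth factors receptor-like gene (gene18303), named for a vertebrate neurotrophin receptor, was at 49.2, 73.7 and 50.7 CPM against 83.0, 128 and 154 CPM (1.08, SE 0.24). An organic cation transporter (gene21254) was at 32.6, 32.6 and 28.7 CPM against 48.2, 68.9 and 76.2 CPM (1.04, SE 0.20, adjusted p = 0.277).

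**Figure D4:**
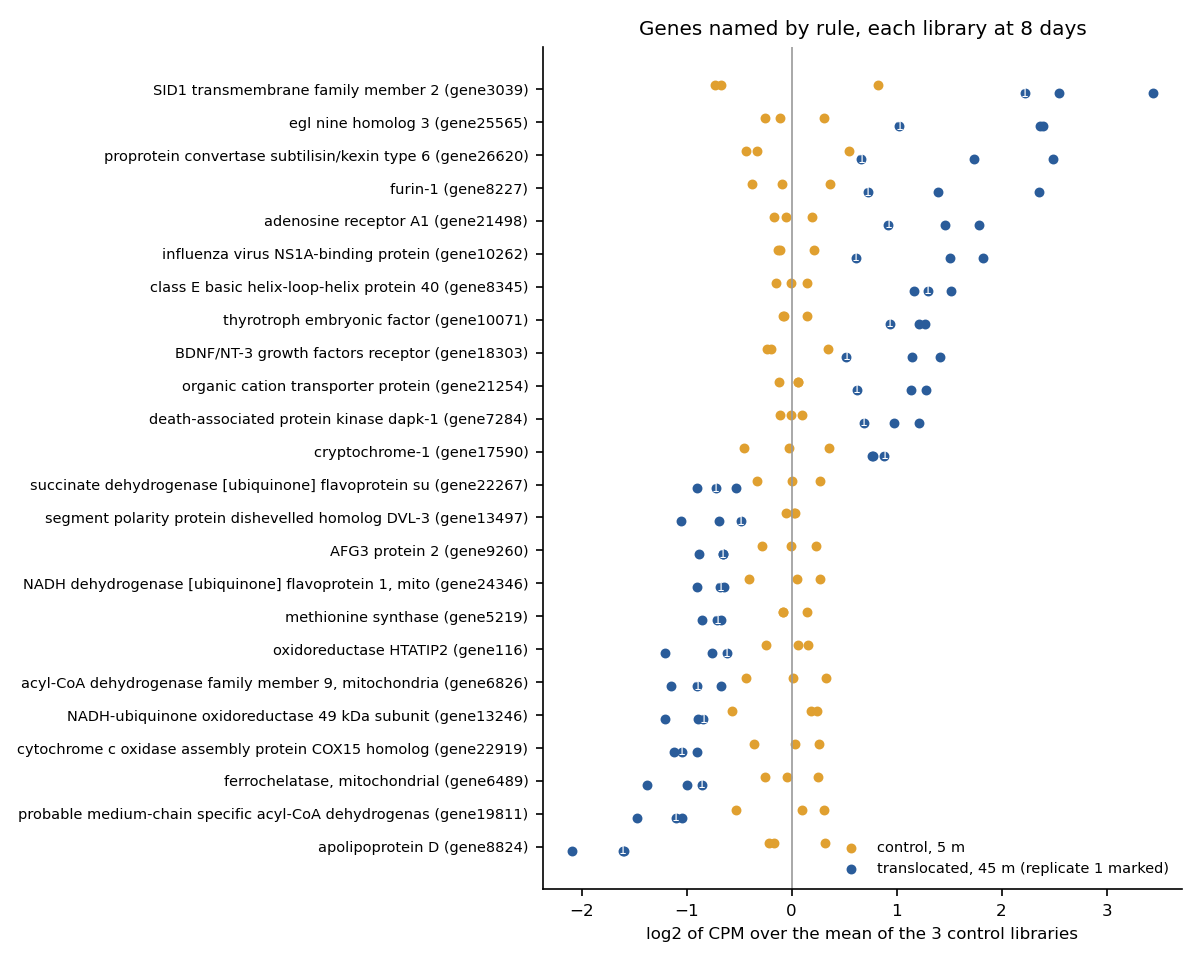
For the 12 higher and 12 lower genes named by rule, each library's level as log2 of its CPM over the mean of the 3 control libraries. Translocated replicate 1, marked, is the translocated library nearest the controls in 10 of the 12 higher genes. Of these 24 genes only gene8345 passed the adjusted threshold.

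The number of calls depended on the tool and on single libraries. Without translocated 1, edgeR called 8 genes, all higher. Besides gene8345 and gene5319 these were furin-1 (gene8227), the NS1A-binding protein gene10262, the organic cation transporter gene21254, the uncharacterized gene13795 and gene24295, and gene24661, which has no product name. They are named because that fit called them, after their values were seen. Without control 1 or without control 3 edgeR called none, with 834 and 747 genes at an unadjusted p under 0.05. With only the 6 libraries fitted it called 2 uncharacterized genes, gene23214 (-3.42, SE 0.28) and gene23922 (-2.95, SE 0.25), both lower and both with an adjusted p of 0.0392.

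DESeq2 on the same 24 libraries called 95 genes (0.369%), 83 higher and 12 lower. Among them 79 had groups that did not overlap, 67 higher and 12 lower, 8 were under 1 CPM in both groups, and 93 had an edgeR unadjusted p under 0.05. Among the lists, DESeq2 called as higher 5 of 30 proprotein convertases, 3 of 105 adenosine receptors and 2 of 18 oxygen-sensing genes. The first 2 of these lists, and gene5319 in the third, were added after values were seen. Also called higher were 4 of 14 clock and light regulators, 3 of 196 skeletal matrix genes, 2 of 84 heat shock genes and 2 of 590 neuron genes. Oxidative phosphorylation and innate immunity held 1 such gene each. Over all genes 83 of 25735 were called higher, a share like that of the neuron list. DESeq2 called lower 4 of 321 genes named as mitochondrial, a list also added after values were seen, and 2 of 52 oxidative phosphorylation genes. It called lower 1 of 46 fatty acid oxidation genes and 1 of 26 lipid genes, against 12 of all 25735 genes. Its 4 fold changes above 15 on the log2 scale were in genes without a count in any control, which gives them no size. Some other genes it called were high in 1 translocated library, such as eukaryotic initiation factor 5B-like (gene16844) at 0.325, 6.66 and 67.5 CPM and suppressor of cytokine signaling 3-like (gene7296) at 5.47, 4.52 and 26.8 CPM. Without translocated 3 their edgeR fold changes went from 6.53 to 3.70 and from 3.39 to 2.10.

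More genes passed the threshold at 60 days than at 8 days. The ages share no library, so the 8-day differences could be set beside those at 60 days. Counts of calls are no test of a difference between the ages, which is given further on. At 60 days 278 genes (1.08%) were called higher and 330 (1.28%) lower. Gene8345 rose there as well (2.03, SE 0.17, adjusted p = 5.02e-06), and its effect at 60 days did not pass the test of a difference from that at 8 days (difference 0.69, SE 0.23, adjusted p = 0.471). Of the 608 genes called at 60 days, 472 (77.6%) had the same sign at 8 days, as did 61.2% of all genes. For genes called lower the count was 276 of 330 (83.6%), and for those called higher 196 of 278 (70.5%).

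Several 8-day leanings were called changes at 60 days, and others were not. Apolipoprotein D (gene8824) fell by 3.03 on the log2 scale at 60 days (adjusted p = 0.000108), COX15 (gene22919) by 2.38, ferrochelatase (gene6489) by 2.39 and medium-chain acyl-CoA dehydrogenase (gene19811) by 1.95. Of the 321 genes named as mitochondrial 47 were called lower and 3 higher at 60 days. That list was added after values had been seen, so its counts support nothing. Of the 46 fatty acid oxidation genes 10 were called lower and none higher. Over all genes the shares called at 60 days were 1.28% lower and 1.08% higher. The fatty acid oxidation median was -0.37 at 8 days and -0.50 at 60 days. None of the 6 fluorescent protein genes was called at 60 days, and their median was -0.75, against -1.81 at 8 days. The median of the cytosolic ribosome list went from -0.16 to 0.57, and that of the cell cycle list from -0.23 to 0.02. Thyrotroph embryonic factor (gene10071) rose by 1.75 (adjusted p = 0.00118) and gene1874 by 2.20, and bHLH protein 40 (gene25223) rose by 1.62. Heat shock factor 1 (gene1) rose by 2.59 and dnaJ B4 (gene22156) by 2.37. None of these 9 genes passed the test of a difference between the ages. Others had no such counterpart: gene25565, the prolyl hydroxylase homolog, was at 0.59 (SE 0.42) at 60 days and furin-1 (gene8227) at 0.14 (SE 0.34), with differences from 8 days that were not called (adjusted p = 0.624 and 0.428).

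The effect of depth differed between 60 and 8 days in 20 genes (0.0777%), 9 with a higher and 11 with a lower effect at 60 days. Leaving out 1 library of 8 days left between 1 and 15 such genes, and of the 20 only gene17976 kept its call in every setting tried. Among the lists such genes were 1 of 52 in oxidative phosphorylation, 1 of 22 in glycolysis and 1 of 8 in photolyases and excision repair. They were 1 of 347 developmental genes and 2 of 321 genes named as mitochondrial. The other lists, fatty acid oxidation and the citrate cycle among them, held none. A cytochrome c oxidase subunit NDUFA4-like gene (gene17976), of the respiratory chain, was at 14.9, 21.6 and 14.01 CPM in 8-day controls and 20.8, 35.1 and 42.3 CPM in translocated juveniles, but at 112.6 to 183.6 CPM in 60-day controls and 15.4 to 23.3 CPM after 60 days at depth. The effect went from 0.96 (SE 0.29) to -2.92 (SE 0.31), a difference of -3.87 (SE 0.43, adjusted p = 0.00055). A neighbouring copy by number (gene17977) shares its product name, so reads may be split between them. Phosphoenolpyruvate carboxykinase (gene18452), which commits carbon to glucose synthesis, was at 101, 108 and 81.8 CPM against 114, 277 and 190.3 CPM at 8 days, and its effect went from 1.0 (SE 0.34) to -2.32 (SE 0.36; difference -3.32, adjusted p = 0.0149). Lactate dehydrogenase (gene17088), which links pyruvate and lactate, was at 48.4, 52.1 and 37.5 CPM against 46.2, 71.5 and 61.5 CPM, with effects of 0.38 and -1.38 (difference -1.76, adjusted p = 0.0235). In all 3 the 60-day controls were above the 8-day controls.

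The photolyase gene15271 had no separation at 8 days (-0.20, SE 0.18) and fell at 60 days (-1.70, SE 0.18; difference -1.50, adjusted p = 0.0323). The bZIP factor protein giant-like (gene7333), named for a Drosophila segmentation gene, was at 43.2, 40.3 and 42.7 CPM against 59.3, 52.9 and 54.0 CPM at 8 days (0.40, SE 0.14) and rose by 1.70 at 60 days (difference 1.30, adjusted p = 0.0235). Wnt-2b-A-like (gene897), a secreted signal, overlapped at 8 days, at 18.6, 10.7 and 25.0 CPM against 21.7, 19.2 and 16.7 CPM, and rose by 2.51 at 60 days. Serotransferrin-like (gene8487), an iron carrier, was at 91.8, 53.4 and 119 CPM in 8-day controls and 24.6, 13.4 and 8.75 CPM in translocated juveniles, lower without overlap. At 60 days it lay at 0.0519 to 0.508 CPM in controls and at 0.763 to 15.3 CPM at depth, so every 60-day library was under every 8-day control. Only the adjusted p of 0.0329 for the difference of effects is a test of that contrast.

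**Figure D5:**
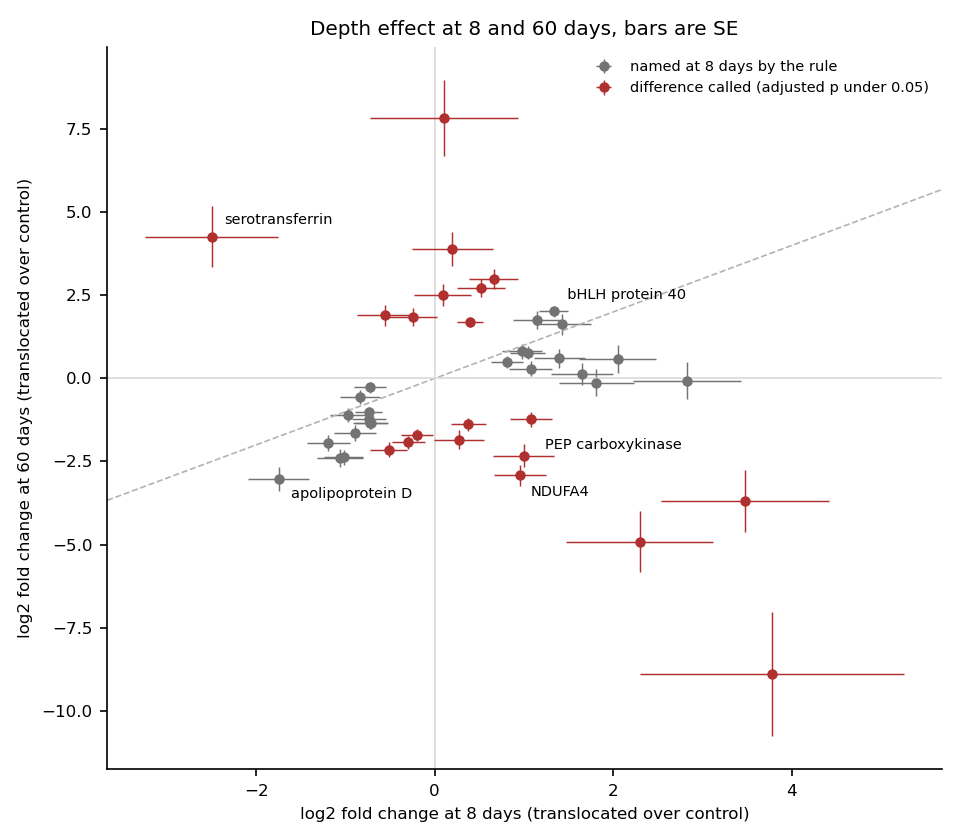
Log2 fold change of translocated over control juveniles at 8 days (x) and at 60 days (y), with bars of 1 SE, for the 24 genes named by rule at 8 days (grey) and the 20 genes whose effect differed between the ages (red, adjusted p under 0.05). The dashed line marks equal effects. The bHLH protein 40 gene lies at 1.33 and 2.03, near the line, and the NDUFA4-like gene at 0.96 and -2.92, far from it.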

How the data were processed

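Poly(A) RNA of whole coral was sequenced, with molecular identifiers added before PCR, per the labels' protocols. The authors deposited raw counts per gene for 24 libraries, all used. Trimmomatic, cutadapt, FastQC, MultiQC and DESeq2 are named in the submitters' processing notes. Aligner, counter, genome build, strand use and treatment of molecular identifiers: not given in the sources used here. Hence overlapping, antisense and near-identical genes may share reads. Product names and NCBI gene numbers come from a second deposited table covering 26602 of 33281 genes (21217 of its 24389 NCBI gene numbers were in the reference gene table). Those names are automatic homology names. Its gene lengths (another deposited column) and fold changes were not used.

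Genes were filtered with filterByExpr (25735 kept; 1031 of 33281 had no count) and scaled by TMM in edgeR 4.0.16 (R 4.3.3). All 24 libraries, in 8 groups of 3, entered 1 quasi-likelihood fit of group means with 16 residual degrees of freedom. The 2-sided tests, adjusted over all genes by Benjamini-Hochberg with a threshold of 0.05, took 2 contrasts: translocated minus control at 8 days, and the depth effect at 60 days minus that at 8 days. CPM values are the deposited counts relative to TMM-scaled library totals; log2 CPM for principal components and list medians used a prior count of 2. DESeq2 1.42.0, limma 3.58.1 (voom), other scalings, no filter, subsets of libraries, a replicate block and leaving out each library were alternatives. The pipeline was tested on simulated counts. Libraries of a group differed beyond sampling noise, so none was a duplicate.

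Genes were named by rule: called genes; the 12 higher and 12 lower genes of smallest p with an informative name, no overlap and at least 10 CPM in the higher group; up to 3 per list (the smallest p, and 2 more with an unadjusted p under 0.05 and at least 10 CPM); the 6 largest rises and falls called by DESeq2; and the fluorescent protein and clock lists, with values at 10 CPM or more. Gene1874, gene22464 and gene26795 fall outside the rule and were named after their values were seen. The comparison and the 33 gene lists, picked by words in product names, were chosen with earlier results of these data known. Some list patterns were corrected after values had been seen, endothelial PAS protein 1 was then added to oxygen sensing, and 3 lists (proprotein convertases, adenosine receptors and proteins named as mitochondrial) were added. Lists therefore get no test. That fits without a library keep the genes of the full fit was also settled after values had been seen.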

Additional observations from a re-analysis of the deposited data

Results flagged for a closer look

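In 20 genes the effect of depth differed between 60-day and 8-day juveniles by a test of the difference itself (edgeR quasi-likelihood test, 3 libraries per group, adjusted over all genes). Values are the log2 effect at 60 days minus that at 8 days. Among named enzymes and mitochondrial proteins the difference was -3.87 for the NDUFA4-like gene17976, -3.32 for phosphoenolpyruvate carboxykinase (gene18452), -1.76 for lactate dehydrogenase (gene17088), -1.63 for the reductase SDR family member 12 (gene4048), -1.63 for the mitochondrial RNA helicase SUPV3L1 (gene18478) and -1.50 for photolyase (gene15271). Gene17976 was at 112.6 to 183.6 CPM in 60-day controls, against 14.01 to 21.6 CPM in 8-day controls.

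A higher effect at 60 days was found for protein giant (gene7333, 1.30), nucleolin (gene13381, 2.33), Wnt-2b-A (gene897, 2.42), serotransferrin (gene8487, 6.77), an amebocyte aggregation factor (gene23284, 7.73), a threonine-rich glycoprotein (gene21039, 2.09) and the uncharacterized gene5878 (3.69), gene8507 (2.46) and SpisGene13728 (2.20). Among genes without an informative name the effect was lower at 60 days for gene24295 (-2.31), gene13822 (-7.21), gene13230 (-7.16), gene20084 (-12.69) and gene21699 (-2.11). In serotransferrin, gene23284 and gene20084 at least 1 library of the 60-day groups was near 0 counts, so these fitted values are no measure of size. Gene24295 was also 1 of the 8 genes called at 8 days without translocated 1. No explanation of these differences was tested.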

How the results depend on the processing

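The count of 1 gene at 8 days was also 1 under DESeq2 size factors, upper-quartile scaling and no filter. It was 0 with the 12 juvenile libraries, 2 with the 6 libraries of 8-day juveniles, 2 with limma-voom (gene8345 and, lower, gene23214), 95 with DESeq2 on 24 libraries and 819 with DESeq2 on 6 libraries, which kept 78 of the 95. Leaving out 1 library gave 0 to 8 genes (0 without control 1 or control 3, 8 without translocated 1). The count of 20 genes whose effect differed between ages was 18, 15 and 18 under the other scalings and no filter, 9 with the 12 juvenile libraries, 11 with limma-voom and 188 with DESeq2. Leaving out 1 library of 8 days gave 1 to 15 (2, 6 and 2 without controls 1, 2 and 3; 15, 1 and 3 without translocated 1, 2 and 3). The cause of these shifts was not tested.

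Replicate numbers did not pair the libraries: deviations of same-numbered libraries correlated at 0.257, -0.0429 and -0.0949. With the replicate block the 8-day count was 0 (gene8345 at an adjusted p of 0.0504) and the count of differences 19. Timeless (gene9837) was the only named gene to turn, at -0.12 with all libraries and between -0.23 and 0.0053 with 1 left out (the highest without control 1). Of 33 lists 27 kept the sign of their median in every setting run, the exceptions being apoptosis, carbonic anhydrases, developmental factors, germ line, motile cilia and photolyases, and 36 of the recomputed medians moved beyond the spread used for comparison against 426 that did not. Of the log2 fold changes of named genes at 8 days recomputed under the alternatives, 1189 kept direction and side of the threshold, 35 passed it newly and 5, all of gene8345, no longer did. The recomputed differences of the 20 genes kept their direction, and 137 of them, over all but gene17976, missed the threshold. Genes under about 1 CPM rest on few counts, and their fold changes depend on the fit.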
